A study of Homo sapiens with 8 samples.

Results

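The secreted hypoxia factors described here were 8 genes that code for secreted signalling proteins other than VEGF: ADM, ANGPTL4, STC1, STC2, FGF2, EDN1, MIF and CALCA. Every probe set that the array annotation assigned to exactly 1 gene symbol among these 8 was included, which gave 18 of the 54675 probe sets and 8 of the 19775 genes with a probe set of their own. Their levels were read in 4 groups of human colon cancer cells with 2 Affymetrix HG-U133 Plus 2.0 arrays each. DKS-5, labelled K-ras mutant, was sampled after 12 h of hypoxia (1% O2) and in normoxia (21% O2). DKO-3, labelled K-ras wild-type, was sampled after the same 12 h of hypoxia and in normoxia. Both lines were grown in standard medium and harvested while still subconfluent. Each genotype was represented by a single line, so K-ras and any other difference between the lines cannot be told apart. The labels do not state if the 2 samples of a group are separate cultures. The p-values then rest only on the spread within these pairs, which may be technical.

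Cells short of oxygen stabilise the hypoxia-inducible factors (HIF), transcription factors that bind the core sequence RCGTG near their target genes and raise the output of several secreted proteins. Adrenomedullin (ADM) and alpha-CGRP, one of the products of CALCA, are related vasodilator peptides that act on the receptor CALCRL paired with a RAMP protein. The CALCA transcript can also be spliced to code for calcitonin. ANGPTL4 inhibits lipoprotein lipase, STC1 and STC2 are the stanniocalcins, glycoprotein hormones, FGF2 is a heparin-binding growth factor that leaves cells without a signal peptide, EDN1 is the vasoconstrictor endothelin-1, and MIF is a cytokine that is stored in the cell and released.

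Promoter windows of RefSeq (assembly GRCh38.p14, 250 bases before to 50 bases after each annotated start) were at hand for 7 of the 8 genes, in 9 windows. They were searched on both strands for ACGTG and GCGTG, the spelled-out forms of the HIF core. The palindrome CACGTG counts once on each strand. Over all 35116 windows of that length, 48.4% held at least 1 match, 21.4% ACGTG and 36.5% GCGTG, so a match in 1 window is common. The 4 windows below are shown because ADM, ANGPTL4 and MIF passed the test for hypoxia over both lines, and CALCA, whose window holds no match, had the largest difference between the lines among the 8 genes. They lie at chr11:10304823-10305122 on the plus strand for ADM, chr19:8363905-8364204 on the plus strand for ANGPTL4, chr22:23894133-23894432 on the plus strand for MIF and chr11:14972302-14972601 on the minus strand for CALCA. Each is written 5′ to 3′ along the gene's strand, with the matches in capitals.
ADM: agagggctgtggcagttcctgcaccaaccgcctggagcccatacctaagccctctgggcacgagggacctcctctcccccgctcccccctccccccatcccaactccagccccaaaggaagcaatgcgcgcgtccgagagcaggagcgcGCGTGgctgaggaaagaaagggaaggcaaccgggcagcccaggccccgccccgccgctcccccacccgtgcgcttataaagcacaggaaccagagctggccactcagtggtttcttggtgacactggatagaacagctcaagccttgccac
ANGPTL4: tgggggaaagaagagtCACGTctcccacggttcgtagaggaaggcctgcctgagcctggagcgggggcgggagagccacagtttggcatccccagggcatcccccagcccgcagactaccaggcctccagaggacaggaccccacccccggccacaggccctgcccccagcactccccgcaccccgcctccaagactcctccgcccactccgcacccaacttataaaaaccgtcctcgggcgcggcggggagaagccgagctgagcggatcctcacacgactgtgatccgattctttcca
MIF: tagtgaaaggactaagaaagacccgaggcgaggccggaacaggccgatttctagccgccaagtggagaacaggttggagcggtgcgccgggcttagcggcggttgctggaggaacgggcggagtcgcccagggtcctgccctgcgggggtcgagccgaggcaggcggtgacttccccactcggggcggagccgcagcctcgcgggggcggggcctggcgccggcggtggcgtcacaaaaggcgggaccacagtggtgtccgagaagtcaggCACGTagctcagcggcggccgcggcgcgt
CALCA: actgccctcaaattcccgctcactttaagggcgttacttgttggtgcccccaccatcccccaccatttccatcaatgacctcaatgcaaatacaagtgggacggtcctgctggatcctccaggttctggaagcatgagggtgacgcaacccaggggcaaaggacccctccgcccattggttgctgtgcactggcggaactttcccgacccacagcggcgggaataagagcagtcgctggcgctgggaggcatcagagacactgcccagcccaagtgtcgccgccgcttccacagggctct
The ADM window held 1 GCGTG on the gene's strand, 101 bases before the start. The ANGPTL4 window held 1 ACGTG on the opposite strand, written CACGT, 234 bases before the start, and the MIF window held 1 ACGTG on the opposite strand, 22 bases after it. The window of FGF2 held 1 match, that of STC2 held 3, and the 3 windows of EDN1 held 3, 0 and 1. A match is a run of letters and not a measured site.

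The deposited signals had 2% trimmed means of 133 to 201 per array, a 1.52-fold range, and were scaled to 172.1 before any comparison. The r between the 2 arrays of a group ran between 0.976 and 0.989 across the 12735 genes tested. The ACTB 3' to 5' signal ratio, which is larger in more degraded or more incompletely copied RNA, was 54.8 and 25.6 in DKS-5 hypoxia, 55.1 and 34.3 in DKS-5 normoxia, 11.47 and 11.02 in DKO-3 hypoxia, and 49.0 and 14.9 in DKO-3 normoxia. Of 11 colon epithelium markers 9 were bright enough to test. The summed scaled signal of all 11 lay between 18556 and 23330 on every array. Single markers differed under that sum: the epithelial keratin gene KRT20 was lower in DKS-5 by -3.92 in hypoxia and -4.09 in normoxia on the log2 scale, and the microvillus gene VIL1 was higher by 1.53 and 1.77, all past the threshold. KRT19 rose with hypoxia by 1.28 in DKS-5 and by 1.20 over both lines, which passed, and by 1.12 in DKO-3, which did not. It was lower in DKS-5 than in DKO-3 by -1.04 in normoxia, which passed, and by -0.88 in hypoxia, which did not. Of 5 endothelial and 4 neuroendocrine markers 0 were bright enough, with summed signals of 13.0 to 51.5 and 10.2 to 35.7 per array. Of 6 fibroblast and muscle markers 2 were testable, ACTA2 and COL1A1, and all 6 together had summed signals of 88.8 to 168 per array. Of 4 measured blood cell markers 1 was testable, HBB, and all 4 together had summed signals of 28.1 to 68.6. The part of these markers in the results was not tested.

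Hypoxia raised 3 of the 7 testable genes in DKS-5, ADM, ANGPTL4 and STC1, against 0.503% of all 12735 genes tested (limma, adjusted p under 0.05). It raised 1 of the 7 in DKO-3, ANGPTL4, against 0.346% of all genes. Averaged over both lines, 4 of the 7 rose, ADM, ANGPTL4, STC1 and MIF, against 1.14% of all genes. None of the 7 fell in any of these comparisons, against 0% of all genes in each line and 0.055% over both lines, and STC2 was too dim to test. Of all 32768 probe sets tested, 17.3% in DKS-5 and 22.7% in DKO-3 had both hypoxia arrays above both normoxia arrays. The median log2 difference of the 7 genes over both lines was 1.18, beside 0.03 for all genes tested. The 8 genes were chosen with earlier results of these data known, so their counts describe them and do not set them apart. A gene was represented by its brightest probe set, and values are scaled signals, compared as log2(signal + 16), which understates the change of dim genes.

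**Figure D1:**
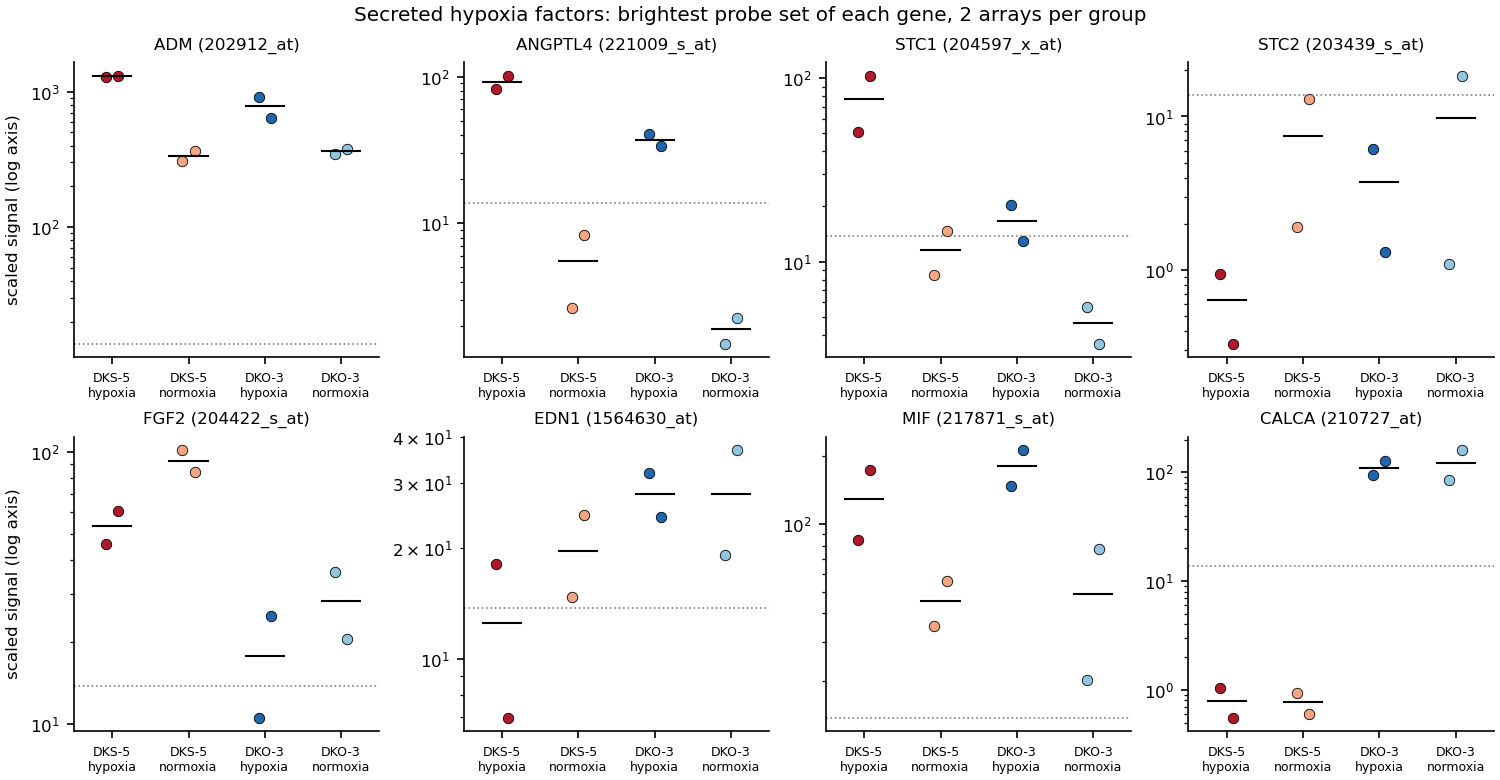
Scaled signal on a log axis (each panel has its own range) of the brightest probe set of each gene in DKS-5 hypoxia, DKS-5 normoxia, DKO-3 hypoxia and DKO-3 normoxia. Points are the 2 arrays of a group, the bar is their mean and the dotted line is the signal of 13.8 that a gene's mean had to pass to be tested. ADM, ANGPTL4 and STC1 are highest in DKS-5 hypoxia, FGF2 is higher in both DKS-5 groups, and CALCA reads at most 1.04 on every DKS-5 array and at least 84.6 on every DKO-3 array.

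ADM, the precursor of the vasodilator adrenomedullin, had scaled signals of 1287 and 1313 in DKS-5 hypoxia, against 309 and 366 in DKS-5 normoxia. In DKO-3 it read 918 and 644 in hypoxia, against 348 and 376 in normoxia. In both lines every hypoxia array lay above every normoxia array, and the 4 normoxia arrays of the lines overlapped. The difference was 1.90 (SE 0.226) on the log2 scale in DKS-5, a 3.73-fold rise (adjusted p = 0.000321). In DKO-3 it was 1.06 (95% interval 0.57 to 1.54, adjusted p = 0.0706) and did not pass. Averaged over both lines ADM rose 2.79-fold (adjusted p = 6.51e-05). In RNA from whole cultures, more RNA per cell and more expressing cells cannot be told apart. Hypoxic DKS-5 cells averaged 1300.2 ± 18.7 and hypoxic DKO-3 cells 781 ± 194 (SD, n = 2 each), a log2 difference of 0.75 that did not pass (adjusted p = 0.0794). The order of the group means was DKS-5 hypoxia, DKO-3 hypoxia, DKO-3 normoxia, DKS-5 normoxia, and the last pair differed by -0.10 (DKS-5 minus DKO-3, adjusted p = 0.953).

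ANGPTL4, the secreted inhibitor of lipoprotein lipase, lay below the brightness limit of 13.8 on all 4 normoxia arrays and above it on all 4 hypoxia arrays. Probe set 221009_s_at read 81.6 and 101 in DKS-5 hypoxia, against 2.65 and 8.36 in DKS-5 normoxia. It read 40.7 and 33.6 in DKO-3 hypoxia, against 1.52 and 2.28 in DKO-3 normoxia. No array of a hypoxia group overlapped its normoxia group, and both hypoxic DKS-5 arrays lay above both hypoxic DKO-3 arrays. ANGPTL4 rose in DKS-5 by 2.33 (SE 0.249, adjusted p = 0.000128) and in DKO-3 by 1.57 (SE 0.249, adjusted p = 0.00949) on the log2 scale. With normoxia signals this low the pseudocount set the size: the difference was 3.98 in DKS-5 and 3.73 in DKO-3 with a pseudocount of 1, and 1.16 and 0.62 with 64. The rise in DKO-3 did not pass when any 1 of the 4 DKO-3 arrays was left out, at 1.47 to 1.67. In hypoxia ANGPTL4 was higher in DKS-5 than in DKO-3 by 1.01 (adjusted p = 0.0322), a call that ended without DKS-5 hypoxia replicate 2 (0.88), DKO-3 hypoxia replicate 1 (1.11) or DKO-3 hypoxia replicate 2 (0.92). It also ended with the ACTB 3' to 5' ratio as a covariate (1.26, adjusted p = 0.141) and with a pseudocount of 1 (1.28, adjusted p = 0.216). In the limma fit with no brightness filter this call ended too (adjusted p = 0.0897), as did the rise in DKO-3 (adjusted p = 0.0781). In normoxia the lines differed by 0.25 (95% interval -0.28 to 0.78, adjusted p = 0.843). A dimmer probe set for ANGPTL4, 223333_s_at, was below the brightness filter with group means of 11.2, 12.4, 6.98 and 6.33 in DKS-5 hypoxia, DKS-5 normoxia, DKO-3 hypoxia and DKO-3 normoxia. Its arrays overlapped in both hypoxia comparisons, so the mean of both probe sets lowered the difference to 1.13 in DKS-5 (adjusted p = 0.0533) and 0.81 in DKO-3 (adjusted p = 0.191).

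STC1, a stanniocalcin that acts as a local hormone in mammals, read 51.0 and 103 in DKS-5 hypoxia, against 8.51 and 14.6 in DKS-5 normoxia (204597_x_at). In DKO-3 it read 20.4 and 13.0 in hypoxia, against 5.68 and 3.59 in normoxia. The arrays of hypoxia and normoxia did not overlap in either line, and only hypoxic DKS-5 cells had both arrays far above the signal of 13.8 used as the brightness limit. STC1 rose by 1.71 (SE 0.289) on the log2 scale in DKS-5, or 3.26-fold (adjusted p = 0.00844). The normoxia signals lay close to or under the brightness limit, so this fold also depends on the pseudocount: the scaled means were 77.1 against 11.6, and the log2 difference was 2.59 with a pseudocount of 1 and 0.88 with 64. In DKO-3 the difference was 0.66 (95% interval 0.04 to 1.27, adjusted p = 0.446). The call in DKS-5 ended without DKS-5 hypoxia replicate 2 (1.29, adjusted p = 0.165) or DKS-5 normoxia replicate 1 (1.54, adjusted p = 0.174). Over both lines STC1 rose by 1.18 (adjusted p = 0.00684), which did not pass without DKO-3 hypoxia replicate 1 (1.10, adjusted p = 0.0633). Within hypoxia STC1 was 2.75-fold higher in DKS-5 than in DKO-3 (log2 difference 1.46, adjusted p = 0.00917). That call ended without DKS-5 hypoxia replicate 2 (1.04), DKO-3 hypoxia replicate 1 (1.62) or DKO-3 hypoxia replicate 2 (1.30), and with the RNA quality covariate (1.78, adjusted p = 0.0720). The ACTB 3' to 5' ratio was 54.8 and 25.6 on the hypoxic DKS-5 arrays, against 11.47 and 11.02 on the hypoxic DKO-3 arrays. STC1 passed the brightness filter, a mean log2 of 4.90 over all arrays, largely through DKS-5 hypoxia. Its mean was 6.48 there, 4.78 in DKS-5 normoxia, 5.02 in DKO-3 hypoxia and 4.36 in DKO-3 normoxia. In the limma fit with no filter its calls ended, with an adjusted p of 0.0849 in DKS-5, 0.0571 over both lines and 0.0569 between the lines in hypoxia.

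The suffix of 204597_x_at marks a probe set whose probes may also bind other transcripts. Both other STC1 probe sets were too dim to test. Probe set 204595_s_at had group means of 6.21 in DKS-5 hypoxia and 0.659 in DKS-5 normoxia, with no overlap, and of 1.87 in DKO-3 hypoxia and 3.12 in DKO-3 normoxia, with overlap. Probe set 204596_s_at averaged 13.7 in DKS-5 hypoxia and 11.2 in DKS-5 normoxia, with overlap, and 5.65 in DKO-3 hypoxia and 6.51 in DKO-3 normoxia, also with overlap. STC2, the other stanniocalcin and an inhibitor of the protease PAPP-A, was read by a pair of dim probe sets. Its brighter one, 203439_s_at, read 0.946 and 0.331 in DKS-5 hypoxia, 1.90 and 13.1 in DKS-5 normoxia, 6.15 and 1.30 in DKO-3 hypoxia, and 1.09 and 18.5 in DKO-3 normoxia. Both DKS-5 hypoxia arrays lay below both DKS-5 normoxia arrays, as in 16.7% of all probe sets tested, and the DKO-3 arrays overlapped. The replicates of DKS-5 normoxia and of both DKO-3 groups were several-fold apart, and the probe set was too dim to be tested.

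MIF, a cytokine that needs no new synthesis to be released, read 84.8 and 174 in DKS-5 hypoxia, against 35.3 and 55.9 in DKS-5 normoxia. It read 148 and 212 in DKO-3 hypoxia, against 20.4 and 76.9 in DKO-3 normoxia. The hypoxia arrays lay above the normoxia arrays in both lines, but the 2 arrays of a group were up to several-fold apart. The log2 difference was 1.19 in DKS-5 (95% interval 0.34 to 2.03, adjusted p = 0.527) and 1.73 in DKO-3 (0.89 to 2.58, adjusted p = 0.105), and neither passed. Averaged over both lines MIF rose 2.75-fold (log2 difference 1.46, SE 0.280, adjusted p = 0.0130). That call ended without any 1 of 5 arrays: DKS-5 hypoxia replicate 2 (1.23), DKS-5 normoxia replicate 1 (1.34), DKO-3 hypoxia replicate 1 (1.58), DKO-3 hypoxia replicate 2 (1.34) or DKO-3 normoxia replicate 1 (1.12). Between the lines MIF differed by -0.48 in hypoxia (DKS-5 minus DKO-3, 95% interval -1.33 to 0.36) and by 0.06 in normoxia (-0.78 to 0.91), and neither passed.

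The MIF signal moved with the ACTB 3' to 5' ratio within groups. In 4 of 4 groups the array with the lower ACTB 3' to 5' ratio had the higher MIF signal, compared with 3 of 4 groups for ADM and ANGPTL4 and 2 of 4 for each of the other genes. That array was replicate 2 in every group, and in DKO-3 hypoxia the ratios were close (11.47 and 11.02). By the GAPDH 3' to 5' ratio the higher MIF signal lay on the higher-ratio array in DKS-5 normoxia (3.70 and 4.23) and DKO-3 hypoxia (1.53 and 1.61). It lay on the lower-ratio array in DKS-5 hypoxia (3.76 and 2.36) and DKO-3 normoxia (4.15 and 2.09). With the log2 of that ratio as a covariate, the difference of MIF over both lines was 0.87 (adjusted p = 0.107), against 1.42 for ADM (adjusted p = 0.00198) and 1.84 for ANGPTL4 (adjusted p = 0.000496), which both passed. STC1 over both lines was at 1.04 with the covariate (adjusted p = 0.106). The part of RNA quality in the MIF and STC1 differences was not tested further. In DKO-3 the hypoxia arrays had the lowest ratios, and with the covariate 0 of the 7 genes passed there, with ANGPTL4 at 1.39 (adjusted p = 0.218).

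**Figure D2:**
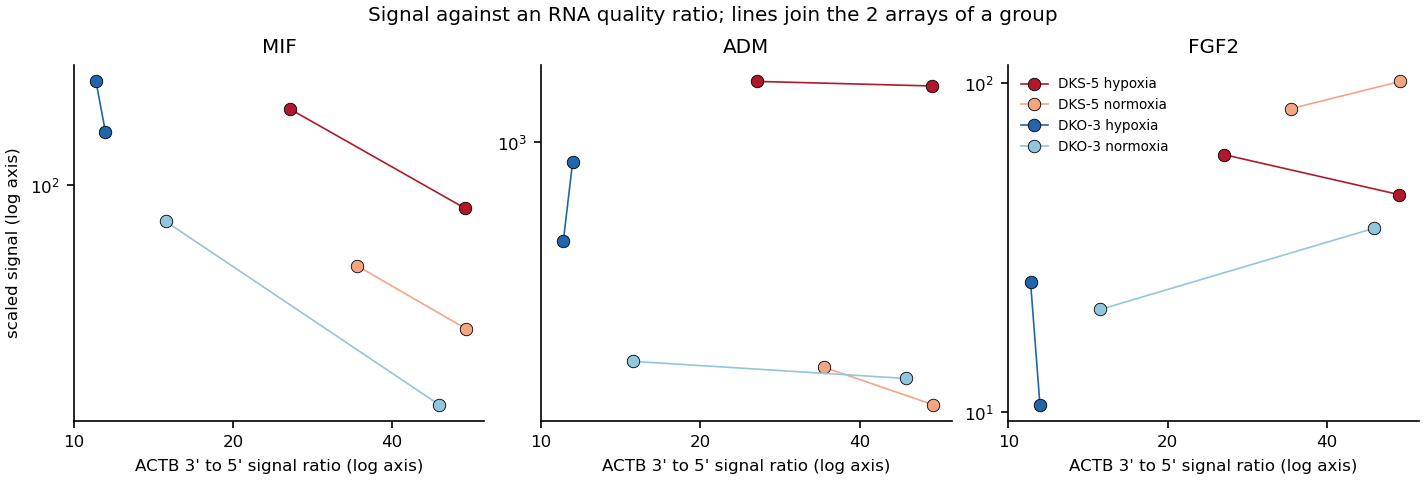
Scaled signal of MIF, ADM and FGF2 (log axes) against the ACTB 3' to 5' signal ratio of the same array, with a line joining the 2 arrays of each group. All 4 MIF lines fall to the right, with 174 at a ratio of 25.6 and 84.8 at 54.8 in DKS-5 hypoxia, while the ADM arrays of DKS-5 hypoxia stay at 1313 and 1287.

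FGF2, a growth factor for endothelial and many other cells, differed between the lines and did not pass for hypoxia. Probe set 204422_s_at read 45.9 and 60.7 in DKS-5 hypoxia, against 10.5 and 24.8 in DKO-3 hypoxia. In normoxia it read 101 and 83.8 in DKS-5, against 36.2 and 20.5 in DKO-3. Every DKS-5 array lay above every DKO-3 array, whatever the oxygen level. FGF2 was 2.48-fold higher in DKS-5 in normoxia (log2 difference 1.31, SE 0.284, adjusted p = 0.0202) and 2.09-fold higher in hypoxia (1.07, SE 0.284, adjusted p = 0.0455). Its other probe set, 204421_s_at, read 20.8 and 27.1 in DKS-5 hypoxia, against 7.27 and 8.07 in DKO-3 hypoxia, and 57.1 and 33.5 in DKS-5 normoxia, against 16.5 and 8.96 in DKO-3 normoxia. Fitted as a row of its own, that probe set was higher by 0.75 in hypoxia (adjusted p = 0.179) and 1.08 in normoxia (adjusted p = 0.0735), and did not pass. With every probe set as its own row, 204422_s_at passed in normoxia (adjusted p = 0.0415) and not in hypoxia (adjusted p = 0.0748), where 0.354% and 0.574% of all probe sets tested were higher in DKS-5. Both DKS-5 arrays lay above both DKO-3 arrays in 20.5% of all probe sets in normoxia and 16.7% in hypoxia.

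The hypoxia call for FGF2 between the lines was close to the threshold and ended without any 1 of 7 arrays, all but DKS-5 hypoxia replicate 1, at 0.75 to 1.38, and with the RNA quality covariate (0.81, adjusted p = 0.442). The normoxia call ended without DKS-5 normoxia replicate 1 (1.19), DKS-5 normoxia replicate 2 (1.43) or DKO-3 normoxia replicate 2 (1.05), and with the RNA quality covariate (1.21, adjusted p = 0.0578). Within a line, hypoxia minus normoxia was -0.65 in DKS-5 (95% interval -1.26 to -0.05, adjusted p = 0.672) and -0.41 in DKO-3 (-1.01 to 0.20, adjusted p = 0.648). The order of the FGF2 means was 92.6 ± 12.4 in DKS-5 normoxia, 53.3 ± 10.5 in DKS-5 hypoxia, 28.4 ± 11.1 in DKO-3 normoxia and 17.7 ± 10.1 in DKO-3 hypoxia (SD, n = 2 each), with overlapping arrays only in the lowest pair.

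EDN1, the precursor of endothelin-1, showed no difference that passed in any comparison. Its probe set 1564630_at read 18.1 and 6.95 in DKS-5 hypoxia, 14.7 and 24.7 in DKS-5 normoxia, 31.9 and 24.2 in DKO-3 hypoxia, and 19.1 and 36.9 in DKO-3 normoxia. The hypoxia and normoxia arrays overlapped in both lines. For this probe set the hypoxia difference was -0.34 in DKS-5 (95% interval -0.95 to 0.28) and 0.03 in DKO-3 (-0.59 to 0.64). Rises of over 1 on this scale lay outside both of its intervals. Its signals of 6.95 to 36.9 were near the pseudocount of 16, so a difference on this scale understates the fold change of the signal. Within hypoxia this probe set was lower in DKS-5 on both arrays, by -0.65 (-1.26 to -0.04, adjusted p = 0.237), which did not pass. Both DKS-5 arrays lay below both DKO-3 arrays in 26% of all probe sets tested in hypoxia. The further testable probe set 218995_s_at read 6.03 and 32.3 in DKS-5 hypoxia, 16.8 and 29.9 in DKS-5 normoxia, 39.6 and 17.5 in DKO-3 hypoxia, and 4.20 and 25.1 in DKO-3 normoxia, with overlap in every comparison. Its hypoxia difference was -0.25 in DKS-5 (95% interval -1.10 to 0.60) and 0.58 in DKO-3 (-0.27 to 1.43). A rise of over 1 in DKO-3 thus lay inside the interval of 218995_s_at. The third, 222802_at, was too dim to test, with group means of 10.2 to 15.4.

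**Figure D3:**
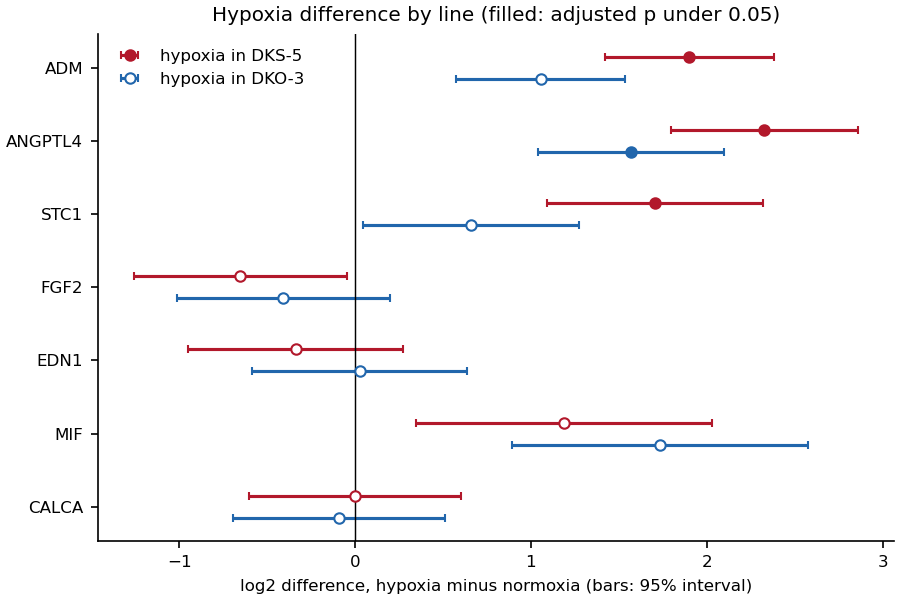
Log2 difference, hypoxia minus normoxia, of the 7 testable genes in DKS-5 (red) and DKO-3 (blue), with 95% intervals from the limma fit. Filled points passed an adjusted p of 0.05: ADM (1.90), ANGPTL4 (2.33) and STC1 (1.71) in DKS-5 and ANGPTL4 (1.57) in DKO-3.

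The hypoxia response of each gene was also compared between the lines as an interaction, DKS-5 minus DKO-3. The 2 responses of ADM differed by 0.84 (95% interval 0.16 to 1.53, unadjusted p = 0.0183), those of ANGPTL4 by 0.76 (0.01 to 1.51, unadjusted p = 0.0470) and those of STC1 by 1.05 (0.18 to 1.92, unadjusted p = 0.0213). The ANGPTL4 value rests on the pseudocount and was 0.25 with a pseudocount of 1. MIF went the other way at -0.55 (-1.74 to 0.65). In the limma fit 0 of the 7 genes and 0 of all 12735 genes passed after adjustment, while 333 of all genes had an unadjusted p under 0.05. That ADM and STC1 passed for hypoxia in DKS-5 and not in DKO-3 is therefore not a shown difference between the lines.

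CALCA, the gene of calcitonin and alpha-CGRP, had the largest difference between the lines among the 8 genes, and it did not pass for hypoxia. Probe set 210727_at read 1.04 and 0.555 in DKS-5 hypoxia, against 94.0 and 126 in DKO-3 hypoxia. In normoxia it read 0.945 and 0.599 in DKS-5, against 84.6 and 161 in DKO-3. All 4 DKS-5 arrays were at the bottom of the scale and all 4 DKO-3 arrays were well above the brightness limit. CALCA was lower in DKS-5 by a log2 difference of -2.90 in hypoxia (SE 0.283, adjusted p = 2.81e-05) and of -2.99 in normoxia (SE 0.283, adjusted p = 1.59e-05), on a scale that understates the size because DKS-5 signals lay below the pseudocount of 16. For comparison, 2.98% of all genes tested were lower in DKS-5 in hypoxia and 1.84% in normoxia, and 1.39% and 0.707% were higher. Without the array scaling, the genes called between the lines in hypoxia were 63 higher and 2320 lower in DKS-5, against 177 higher and 380 lower with it, and CALCA stayed at an adjusted p under 0.05. Of the 7 genes, 3 were higher in DKS-5 and 1 lower in hypoxia, and 1 higher and 1 lower in normoxia. The hypoxia difference of CALCA was 0.0021 in DKS-5 (95% interval -0.60 to 0.61) and -0.09 in DKO-3 (-0.70 to 0.51). The DKS-5 value cannot show if CALCA responded there, because all DKS-5 signals lay far below the pseudocount of 16.

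The other CALCA probe sets were compared as rows of their own in a fit of 32768 probe sets. Probe set 210728_s_at read 2.08 and 15.5 in DKS-5 hypoxia, against 68.3 and 64.9 in DKO-3 hypoxia, and 2.29 and 14.8 in DKS-5 normoxia, against 62.7 and 97.4 in DKO-3 normoxia. It was lower in DKS-5 by -1.79 in hypoxia (adjusted p = 0.00917) and by -1.99 in normoxia (adjusted p = 0.00555). Probe set 217561_at read 0.771 and 1.22 in DKS-5 hypoxia, against 40.8 and 39.97 in DKO-3 hypoxia, and 1.55 and 1.77 in DKS-5 normoxia, against 31.2 and 31.7 in DKO-3 normoxia. Its differences were -1.73 (adjusted p = 0.00104) and -1.43 (adjusted p = 0.00501). The fourth, 217495_x_at, whose suffix marks possible binding of other transcripts, read 24.98 and 20.3 in DKS-5 hypoxia, against 36.8 and 31.8 in DKO-3 hypoxia, and 17.9 and 12.2 in DKS-5 normoxia, against 26.6 and 19.9 in DKO-3 normoxia. Within each oxygen state it was lower on both DKS-5 arrays, by -0.38 in hypoxia (adjusted p = 0.488) and -0.34 in normoxia (adjusted p = 0.836), and did not pass. Both DKS-5 arrays lay below both DKO-3 arrays in 26% of all probe sets tested in hypoxia and 20.5% in normoxia. So 3 of the 4 CALCA probe sets passed in both oxygen states, where 1.51% of all probe sets in hypoxia and 0.800% in normoxia were lower in DKS-5. Those 3 met the brightness filter only through their DKO-3 signals, since their DKS-5 means of 4.07 to 4.58 (log2) lay under its limit of 4.90. In the limma fit of genes with no filter, CALCA kept its calls (adjusted p = 0.00305 in hypoxia and 0.00235 in normoxia).

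**Figure D4:**
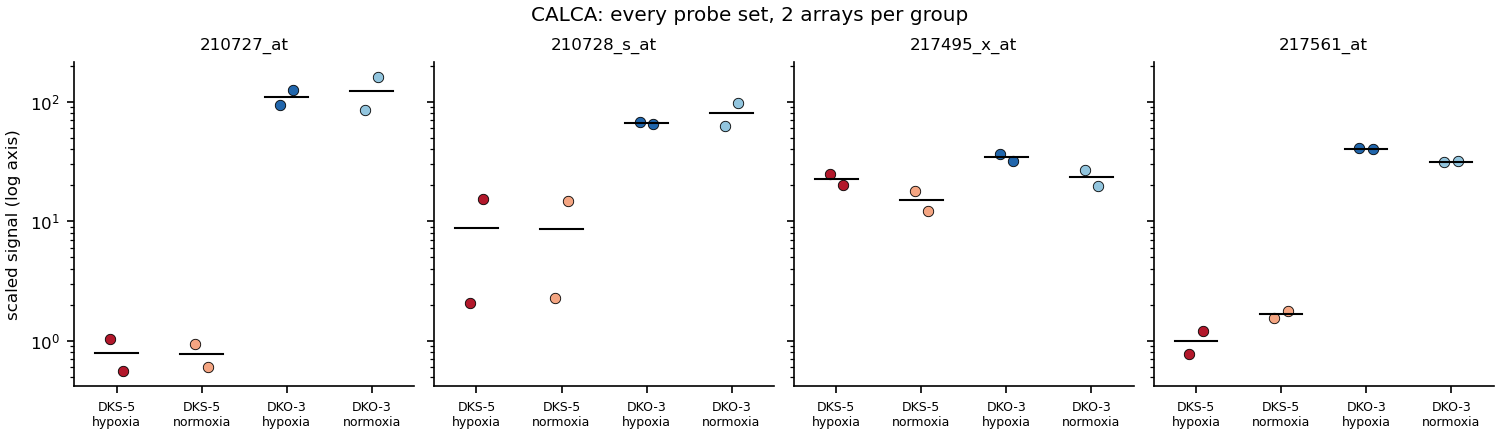
Scaled signal (shared log axis) of the 4 CALCA probe sets in DKS-5 hypoxia, DKS-5 normoxia, DKO-3 hypoxia and DKO-3 normoxia, with both arrays as points and their mean as a bar. Probe sets 210727_at, 210728_s_at and 217561_at are far lower in both DKS-5 groups, while 217495_x_at differs little.

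The neighbours of CALCA on chromosome 11 did not share its difference. Among the 5 nearest tested genes on each side in the RefSeq gene order, RRAS2, COPB1, PSMA1, PDE3B and CYP2R1 on one side and SOX6, C11orf58, PLEKHA7, OR7E14P and PIK3C2A on the other, 0 were lower in DKS-5 by the test. The log2 differences of the 10 genes ran between -0.42 and 1.34 in hypoxia and between -0.56 and 1.06 in normoxia. PDE3B, a phosphodiesterase gene, was higher in DKS-5 in hypoxia (1.34, adjusted p = 0.0201). CALCB, which codes for the related beta-CGRP, was too dim to test, with signals of 0.257 to 7.05. The markers of neuroendocrine cells, a cell class that makes calcitonin in the thyroid, were not bright enough to test in either line.

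Receptors, partners and relatives of these factors were counted by list, beside the shares of all genes that passed for hypoxia (0.503% higher in DKS-5, 0.346% in DKO-3 and 1.14% over both lines). In the adrenomedullin and CGRP list, 4 of 11 genes were testable and 0 passed in any comparison. The receptor gene CALCRL read 0.905 to 11.5 and its partners RAMP2 and RAMP3 0.872 to 18.6, all below the filter on average. RAMP1, the partner that makes CALCRL a CGRP receptor, read 29.0 and 14.5 in DKS-5 hypoxia, against 68.2 and 58.9 in DKO-3 hypoxia, a difference of -1.10 that did not pass (adjusted p = 0.0684). PAM, the enzyme that amidates both peptides, read 1104 to 1632 over the 8 arrays and did not pass. Of the endothelin list, 4 of 8 genes were testable and 0 passed. ECE2, an endothelin-converting enzyme gene, read 71.1 and 121 in DKS-5 hypoxia, against 42.8 and 62.0 in DKS-5 normoxia, and over both lines its difference was 0.71 (adjusted p = 0.140).

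In the angiopoietin-like and lipase list, 8 of 17 genes were testable and 0 passed for hypoxia. Between the lines 1 gene passed in each oxygen state, beside 1.39% of all genes higher and 2.98% lower in DKS-5 in hypoxia and 0.707% and 1.84% in normoxia. With the RNA quality covariate 128 of all genes passed between the lines in hypoxia, against 557 without it. The calls of listed genes here and below are those without it. LIPG, the endothelial lipase gene, read 790 and 1236 in DKS-5 hypoxia, against 491 and 524 in DKO-3 hypoxia, and was higher in DKS-5 by 0.94 (adjusted p = 0.0472). ANGPTL6 read 1.94 and 1.70 in DKS-5 normoxia, against 24.3 and 23.8 in DKO-3 normoxia, and was lower in DKS-5 by -1.17 (adjusted p = 0.0338). Of 10 stanniocalcin partners, PAPP-A proteases and IGF-binding proteins, 9 were testable. IGFBP6, a binding protein that prefers IGF-II, read 17.9 and 35.8 in DKS-5 hypoxia, against 90.3 and 69.3 in DKO-3 hypoxia, and was the 1 gene of that list to pass, lower in DKS-5 by -1.19 (adjusted p = 0.0265). None of the 5 testable MIF partners of 7 listed passed. CD44, which signals for MIF with the receptor CD74, read 523 and 507 in DKS-5 hypoxia, against 322 and 398 in DKO-3 hypoxia, a difference of 0.51 (adjusted p = 0.349).

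In the FGF list, 14 of 19 genes were testable, and in hypoxia 2 were higher and 1 lower in DKS-5, while in normoxia 1 was higher and 2 lower. Over all genes 1.39% were higher and 2.98% lower in DKS-5 in hypoxia, and 0.707% and 1.84% in normoxia. FGF20, a secreted FGF, read 85.3 and 97.1 in DKS-5 hypoxia, against 29.4 and 31.8 in DKO-3 hypoxia, and 106 and 151 in DKS-5 normoxia, against 16.9 and 39.9 in DKO-3 normoxia. It was higher in DKS-5 by 1.20 in hypoxia (adjusted p = 0.0278) and 1.74 in normoxia (adjusted p = 0.00279). FGFR3, an FGF receptor gene, went the other way, with 43.4 and 33.0 in DKS-5 hypoxia, against 183 and 129 in DKO-3 hypoxia, and 23.2 and 29.7 in DKS-5 normoxia, against 105 and 67.4 in DKO-3 normoxia. It was lower in DKS-5 by -1.66 in hypoxia (adjusted p = 0.00233) and -1.25 in normoxia (adjusted p = 0.0224). FGFBP1, a carrier that frees FGF2 from the matrix, read 830 and 732 in DKS-5 hypoxia, against 366 and 293 in DKO-3 hypoxia, and was higher by 1.21 (adjusted p = 0.0220). SDC4, a heparan sulphate co-receptor of FGF2, was the 1 gene of the list to rise over both lines with hypoxia, by 1.01 (adjusted p = 0.0139). In normoxia the third gene to pass was FGF18, lower in DKS-5, which was named after its value was seen because the count is small.

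Of 18 other secreted hypoxia factors, 12 were testable and GDF15, a stress-induced cytokine of the TGF-beta family, was the 1 to rise over both lines (1.01, adjusted p = 0.00995), where 1.14% of all genes rose. It read 595 and 542 in DKS-5 hypoxia, against 212 and 339 in DKS-5 normoxia, and 476 and 346 in DKO-3 hypoxia, against 181 and 213 in DKO-3 normoxia. The median log2 difference of these 12 genes over both lines was -0.01, beside 0.03 for all genes tested. Among HIF target genes whose products stay in the cell, 17 of 19 were higher with hypoxia in DKS-5, 12 of 19 in DKO-3 and 18 of 19 over both lines, against 0.503%, 0.346% and 1.14% of all genes. Their median over both lines was 1.43. NDRG1 rose by 3.82 in DKS-5 and 2.34 in DKO-3, DDIT4 by 2.51 and 1.31, the mitophagy receptor gene BNIP3L by 2.23 and 1.91, and the adenylate kinase gene AK4 by 2.16 and 1.47. This list was also chosen with earlier results of these data known.

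**Figure D5:**
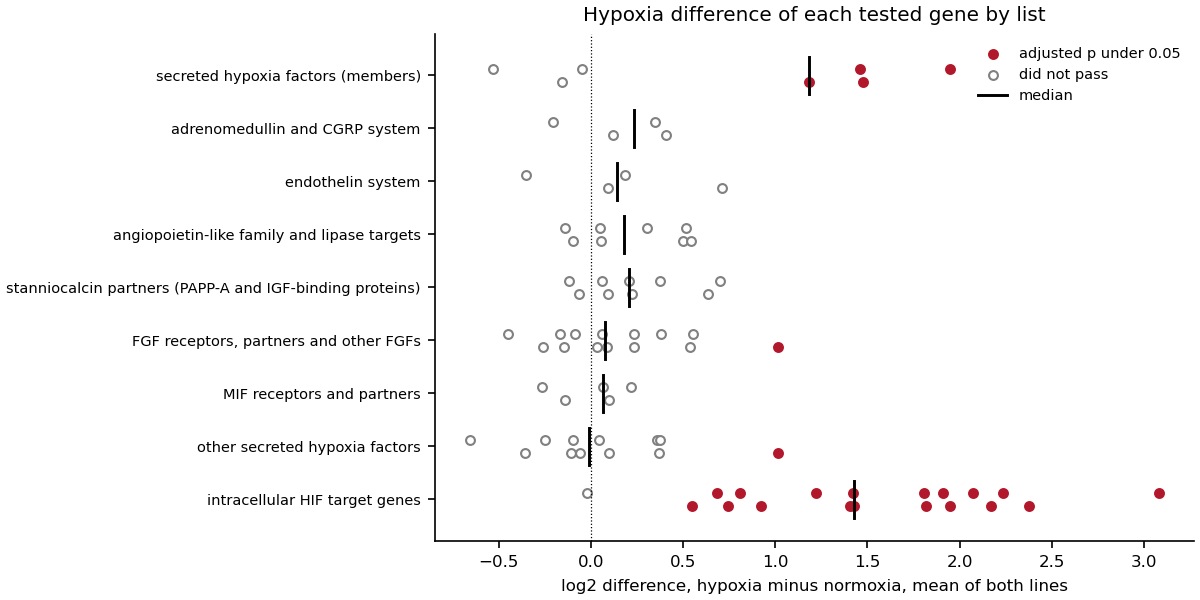
Log2 difference, hypoxia minus normoxia, averaged over both lines, for each testable gene of the 8 secreted factors and of the lists of their receptors, relatives and other hypoxia genes. Red points passed an adjusted p of 0.05, white points did not, and the black bar is the median of a list, 1.18 for the secreted factors, -0.01 for the other secreted hypoxia factors and 1.43 for the intracellular HIF targets.

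The genes most like each factor were ranked by Pearson's r of log2 values over the 8 arrays, among 1041 tested genes whose group means spanned at least 1 on the log2 scale. These r values describe 8 arrays in 4 groups that share their depth and RNA quality. ADM was most like FGD5 (0.985), ANGPTL4 (0.984) and ZNF395 (0.980), and ANGPTL4 was most like P4HA1 (0.990), ZNF395 (0.989) and CFAP96 (0.984). STC1 was most like ZNRD2-DT (0.975), SH3BP2 (0.968) and PDK3 (0.951). FGF2 was most like SLC4A7 (0.975), CDK6 (0.968) and ZNF680 (0.962), whose levels were also higher in DKS-5. MIF was most like RASSF7 (0.981), AP2S1 (0.979) and UBALD2 (0.978), and CALCA was most like PSMB9 (0.997), CARD6 (0.997) and MR1 (0.995). PSMB9, an immunoproteasome subunit gene, was lower in DKS-5 by -3.61 in hypoxia and -3.53 in normoxia on the log2 scale. The group means of EDN1 spanned only 0.65, so no genes were ranked for it.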

How the data were processed

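RNA from 8 samples, 2 in each of 4 groups, was copied and amplified with a NuGEN Ovation kit, labelled with biotin and hybridised, per the labels' protocols. The authors deposited linear intensity values of 54675 probe sets. Per the submitters' processing notes these came from MAS5. Its version and target intensity are not given in the sources used here. No detection calls entered the tests. Because the 2% trimmed means of the arrays differed by over 10%, each array was scaled to their median (172.1). Control probe sets (62) were dropped. Of the others, 41091 had 1 gene symbol, 1801 several and 11721 none here, and 41037 of the first kind matched the RefSeq table of GRCh38.p14, with 0 symbols changed. Each gene was read by its brightest probe set, and genes above the 40th percentile of mean log2 signal (a signal of 13.8) were tested.

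The test was limma 3.58.1 in R 4.3.3 on log2(signal + 16). One model over all 8 arrays had a mean per group, and eBayes used a trend (4 residual and 11.3 prior degrees of freedom). Tests were two-sided with Benjamini-Hochberg adjustment over 12735 genes, or 32768 probe sets, and a threshold of 0.05. The 6 comparisons were hypoxia in each line, hypoxia over both lines, the difference of the 2 hypoxia responses, and the lines against each other in each oxygen state. The scripts were tested on simulated data. Precision is limited by the number of arrays.

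Named genes were the 8 factors with all their probe sets and, per list, up to 4 genes past the threshold with the smallest p, or else the 1 gene with the smallest p. Likeness was read for factors whose group means spanned at least 1 in log2. The factors, lists and tests were chosen with earlier results of these data known. Listed genes with no probe set of their own are not analysed here. The alternatives were the pseudocount, the brightness filter, the array scaling, quantile normalization, the mean of a gene's probe sets, the arrays in the fit, an RNA quality covariate, the replicate block and each array left out.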

Additional observations from a re-analysis of the deposited data

Results flagged for a closer look

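The CALCA probe set 217561_at was marked because its hypoxia arrays all lay below its normoxia arrays in DKS-5, at 0.771 and 1.22 against 1.55 and 1.77, and all above them in DKO-3, at 40.8 and 39.97 against 31.2 and 31.7. The DKS-5 signals were at the bottom of the scale, and the DKS-5 difference was -0.06 (95% interval -0.54 to 0.43). Of all probe sets tested, 16.7% lay all lower with hypoxia in DKS-5 and 22.7% all higher in DKO-3. The hypoxia difference in DKS-5 minus that in DKO-3 was -0.305 on the log2 scale (95% interval -0.997 to 0.39). The difference itself did not pass in the limma fit of all probe sets (unadjusted p = 0.361).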

How the results depend on the processing

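Of 694 values recomputed under other settings, 590 kept their direction and side of the threshold, 59 lost a call, 12 gained one and 33 changed sign, of which 0 were called. The cause was not tested unless stated. ADM kept its call in all 17 settings in DKS-5 and all 16 over both lines, ANGPTL4 over both lines in all 16, and CALCA in 16 of 17 in each oxygen state. CALCA lost it with a pseudocount of 1, which by construction made 217495_x_at, whose suffix marks possible binding of other transcripts, its brightest probe set (-0.58 in hypoxia and -0.60 in normoxia). Calls were lost in 5 of 16 settings for STC1 in DKS-5, 7 of 17 for ANGPTL4 in DKO-3, 8 of 16 for MIF over both lines, and, between the lines in hypoxia, 9 of 17 for ANGPTL4, 5 of 16 for STC1 and 13 of 17 for FGF2, which lost 6 of 17 in normoxia. The number of the 7 factors past the threshold was 3 for hypoxia in DKS-5, 1 in DKO-3, 4 over both lines, 0 for the difference of responses, 4 between the lines in hypoxia and 2 in normoxia. With the mean of all probe sets these were 1 (ADM), 0, 2 (ADM and ANGPTL4), 0, 1 (CALCA) and 2, among 6 factors, since STC1 was too dim to test there. With no brightness filter, which adds genes to the adjustment, they were 2, 0, 2, 0, 1 and 1. With the RNA quality covariate they were 0 in DKO-3, 2 over both lines, 1 between the lines in hypoxia and 1 in normoxia. With a pseudocount of 1 they were 2 between the lines in hypoxia (STC1 and FGF2) and 0 in normoxia. With no array scaling 3 passed in DKO-3 (ADM, ANGPTL4 and MIF), and with only the arrays compared 2 in DKO-3 (ANGPTL4 and MIF) and 2 between the lines in hypoxia (STC1 and CALCA). Leaving out 1 array at a time gave 2 to 3 in DKS-5, 0 to 3 in DKO-3, 2 to 4 over both lines, 0 for the difference of responses, 1 to 4 between the lines in hypoxia and 1 to 2 in normoxia. An array left alone in its group is then assumed to vary like the other groups.

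The values that changed sign were all small or wide. CALCA, at 0.0021 for hypoxia in DKS-5, was -0.011 with no array scaling, -0.0018 with quantile normalization and -0.060 with the covariate, and -0.019 to 0.023 with 1 array left out. At -0.09 in DKO-3 it was 0.55 with a pseudocount of 1, 0.079 with no scaling, 0.081 with the mean of probe sets and -0.50 to 0.31 with 1 array left out. At -0.05 over both lines it was 0.56 with a pseudocount of 1, 0.034 with no scaling, 0.074 with the mean of probe sets and -0.25 to 0.16 with 1 array left out. Its difference of responses, 0.10, was -0.089 with no scaling, -0.013 with the mean of probe sets and -0.31 to 0.50 with 1 array left out. EDN1, at 0.03 in DKO-3, was -0.077 with quantile normalization, -0.15 with the covariate and -0.27 to 0.32 with 1 array left out. Between the lines in normoxia, EDN1 (-0.29) was 0.044 with the mean of probe sets and -0.58 to 0.0093 with 1 array left out. The difference of responses of MIF, -0.55, was 0.29 with the covariate and -1.22 to 0.13 with 1 array left out, and that of FGF2, -0.24, was -0.56 to 0.066. MIF between the lines in hypoxia, -0.48, was 0.90 with the covariate, and in normoxia, at 0.06, it was -0.61 to 0.74 with 1 array left out. ADM between the lines in normoxia, -0.10, was -0.21 to 0.016.

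The labels give the replicates only a number, 1 or 2, and their deviations from the group means correlated at -0.09 to 0.33 between groups. In every group replicate 2 had the lower ACTB 3' to 5' ratio and the higher MIF signal. For MIF the replicate number and that ratio therefore cannot be told apart. With the replicate block 3 factors passed in DKO-3, with ADM (adjusted p = 0.0307) and MIF (adjusted p = 0.00116) added to ANGPTL4, and MIF passed in DKS-5 (adjusted p = 0.0371), while the counts of the other comparisons stayed the same. Over all genes, the number called was 29 to 294 in DKS-5 (64 as reported), 1 to 92 in DKO-3 (44), 58 to 760 over both lines (152), 128 to 2383 between the lines in hypoxia (557) and 119 to 455 in normoxia (324), and 0 for the difference of responses in every setting. The lowest number between the lines in hypoxia, 128, came with the RNA quality covariate. With no scaling the median of all genes moved to -0.19 in DKS-5, 0.20 in DKO-3 and -0.42 between the lines in hypoxia.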
